A study of Mus musculus with 6 samples.

Results

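Nuclear genes for the subunits of the oxidative phosphorylation complexes, with the assembly factors and tissue isoforms that share their symbols, were compared in RAW264.7 cells labelled as lacking E4BP4 and in control RAW264.7 cells. Members were chosen by symbol alone: symbols starting with Nduf for complex I, Sdha to Sdhd for complex II, symbols starting with Uqcr for complex III, with Cox4, Cox5, Cox6, Cox7 or Cox8 for complex IV, and with Atp5 for complex V. This gave 95 of the 25124 gene symbols listed, with 48 in complex I, 4 in complex II, 8 in complex III, 18 in complex IV and 17 in complex V. Of the 95, 87 reached 1 TPM (a transcript level scaled for length and library size) in at least 3 of the 6 libraries and were tested, and 8 did not.

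Oxidative phosphorylation takes place in the inner mitochondrial membrane. Complex I (NADH dehydrogenase) and complex II (succinate dehydrogenase) pass electrons to ubiquinone, complex III (cytochrome bc1) passes them to cytochrome c, and complex IV (cytochrome c oxidase) passes them to oxygen. Complexes I, III and IV pump protons, and complex V (ATP synthase) lets them flow back through its membrane ring to make ATP. Macrophages are known for changing the balance between this pathway and glycolysis when they are activated. Subunits encoded by mitochondrial DNA are not analysed here.

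RAW264.7 is a mouse macrophage-like line that arose in an Abelson virus tumour. The study had 2 groups of 3 libraries, one with the genotype labelled E4BP4 knockout and one labelled Control. All were untreated monolayers grown in high-glucose medium with 10% fetal bovine serum, and polyadenylated RNA was sequenced. E4BP4 is the protein of Nfil3, a bZIP transcription factor that binds D-box elements. How the knockout was made, whether it is 1 clone or a pool, and whether the replicates were separate cultures are points on which the sources used here are silent. The p-values thus measure only how far these libraries spread, and part of that spread may be technical.

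Whole reads recovered from the TPM values came to between 15.6 M and 19.9 M per library. Nfil3, the targeted gene, had 29.5, 29.9 and 31.0 TPM in the control libraries and 105, 104 and 99.8 TPM in the libraries labelled knockout. Its transcript was thus more abundant under the knockout label (log2 fold change of 1.74 ± 0.039 (SE), limma adjusted p = 4.96e-09), and the groups are called by their labels throughout. Whether the protein was lost was not measured here. All 8 macrophage markers were listed above 0, and their summed level ran from 2998 to 3265 TPM in the controls and from 4155 to 4295 TPM in the libraries labelled knockout. The markers did not move together: Lyz2, Cd14 and Spi1 were higher under the knockout label, and Csf1r, Cd68, Fcgr3, Itgam and Adgre1 were lower, each without overlap. Their part in the members' values was not tested. Of the 20 markers of T cells, B cells, fibroblasts, epithelial cells and erythroid cells, 19 stayed under 1 TPM in every library and 6 were listed at 0 throughout. The exception was in the T cell list, which summed to no more than 4.22 TPM. A TPM value is a share of a library's transcripts, so fewer cells that express a gene and less of its RNA per cell cannot be told apart.

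The proximal promoters of the members hold elements of known regulators of these genes. RefSeq promoter sequences (GRCm38.p6, 250 bases before to 50 bases after the start) starting within 100 bases of the listed transcript were found for 71 of the 87 tested members. Motifs were searched on both strands, and matches of different motifs could overlap. GABP's CCGGAAG was in 19 of the 71 (26.8%, against 21.1% of all 8590 promoters), NRF1's CGCATGCGC in 10 (14.1% against 4.30%), and YY1's AAGATGGCG in 8 (11.3% against 3.80%). The D-box was searched as TTANGTAA, where N is any base. It was in 2 members, Atp5o (as TTAAGTAA) and Cox7b (as TTATGTAA), 2.82% of the 71 against 1.23% of all promoters. CREB's TGACGTCA was in 4 (5.63% against 3.55%), ERR's TCAAGGTCA in 2 (2.82% against 0.291%) and SP1's GGGCGG in 30 (42.3% against 66.7%). The stretches upstream of the start are shown for these 2, and for 3 ATP synthase genes that were lower under the knockout label and carry the other elements. The stretch of Ndufa4, the member with the lowest fold change, holds none of the motifs searched. Each runs 5′ to 3′ to the base before the start, and capitals mark the D-box in Atp5o and Cox7b, the YY1 and then the GABP element in Atp5j, the GABP element in Atp5e (read on the opposite strand) and the NRF1 element in Atp5k.
Atp5o, chr16:91931631-91931880, minus strand: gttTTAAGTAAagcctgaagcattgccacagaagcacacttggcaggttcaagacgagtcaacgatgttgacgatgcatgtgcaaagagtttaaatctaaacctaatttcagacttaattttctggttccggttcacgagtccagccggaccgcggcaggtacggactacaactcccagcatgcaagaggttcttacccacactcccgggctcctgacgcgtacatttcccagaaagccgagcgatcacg
Cox7b, chrX:106015500-106015699, plus strand: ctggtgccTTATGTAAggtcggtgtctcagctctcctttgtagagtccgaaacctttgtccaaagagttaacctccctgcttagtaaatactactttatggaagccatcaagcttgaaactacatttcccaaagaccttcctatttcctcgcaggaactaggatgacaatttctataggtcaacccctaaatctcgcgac
Atp5j, chr16:84834977-84835096, minus strand: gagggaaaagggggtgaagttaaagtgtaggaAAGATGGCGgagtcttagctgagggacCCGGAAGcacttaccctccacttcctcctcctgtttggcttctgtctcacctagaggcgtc
Atp5e, chr2:174464102-174464221, minus strand: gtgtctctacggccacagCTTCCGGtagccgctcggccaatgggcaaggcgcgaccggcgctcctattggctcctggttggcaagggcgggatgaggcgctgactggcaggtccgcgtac
Atp5k, chr5:108434400-108434479, minus strand: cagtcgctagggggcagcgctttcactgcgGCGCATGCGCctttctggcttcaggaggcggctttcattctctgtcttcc
Ndufa4, chr6:11907451-11907570, minus strand: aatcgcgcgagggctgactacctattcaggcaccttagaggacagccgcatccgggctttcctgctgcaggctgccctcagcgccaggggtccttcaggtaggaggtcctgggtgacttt
A match is a description of these letters and not a bound site. The D-box match began 247 bases before the start of Atp5o and 192 bases before that of Cox7b.

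Across the 5 complexes, 44 of the 87 tested members passed the test (limma on log2(TPM + 1), 2-sided, Benjamini-Hochberg adjusted p under 0.05 over all 11257 genes tested). This is 50.6% of the members, beside 50.1% of all genes tested. By direction, 16 members were higher and 28 were lower under the knockout label, where 26.7% of all genes were higher and 23.4% lower. The changes were small: 74 of the 87 lay within 1.2-fold of the control, and the median log2 fold change of the members was -0.05, against 0.02 for all genes tested. The groups did not overlap for 47 of the 87 members, below the background of 58.5% of genes.

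**Figure D1:**
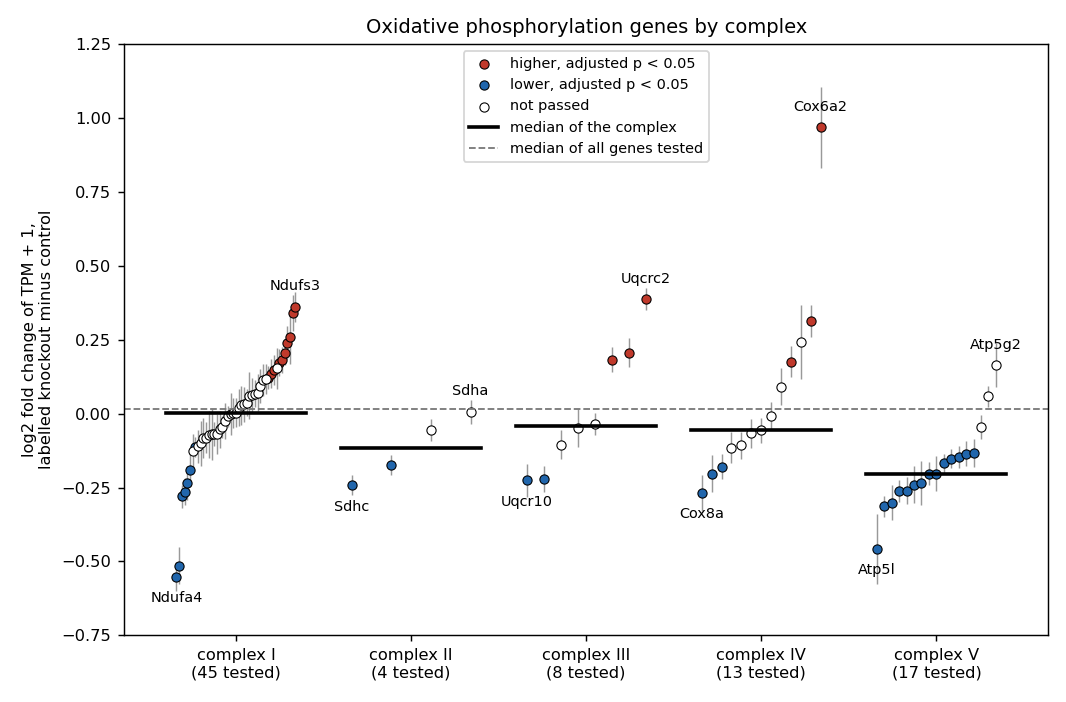
Log2 fold change of TPM + 1 (libraries labelled knockout minus control, 3 libraries a group) for each tested member, with its SE as a bar, by complex. Filled points passed the test, thick lines are complex medians and the dashed line is the median of all genes tested. Complex V holds 14 lower and 0 higher members, while complexes I, III and IV hold called members on both sides of 0.

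The complexes differed in how their members were distributed. In complex V, 14 of 17 members were lower and 0 higher, with a median log2 fold change of -0.20. Complex II had 2 of 4 lower and 0 higher (median -0.11). Complex I had 10 higher and 7 lower of 45 (median 0.0033), and complex III had 3 higher and 2 lower of 8 (median -0.042). Complex IV had 3 higher and 3 lower of 13 (median -0.056). Cox6a2, 1 of these 3 higher members, passed the filter on low values only through the libraries labelled knockout. The calls of 13 members were lost when 1 library or another was left out, with limma adjusted p from 0.0504 to 0.139, among them Atp5g1, Atp5h, Atp5md and Atp5mpl in complex V, Ndufab1, Ndufaf1, Ndufaf3, Ndufs1, Ndufs8 and Ndufv1 in complex I, and Cox5b and Cox7b in complex IV. None of the 13 changed direction. The medians are descriptions, and no test of the difference between complexes was made.

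Complex V, the ATP synthase, has a catalytic F1 head, a rotating ring of c subunits, a peripheral stalk that holds the head still, and further membrane subunits that join the enzyme into dimers. Members of all 4 parts were lower under the knockout label. All 5 of the further membrane subunits and all 4 stalk subunits fell, as did 2 of the 3 c-ring genes and 3 of the 5 F1 genes. The 14 that fell did so by 0.13 to 0.46 on the log2 scale, and in each of them every library labelled knockout lay below every control library.

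Among the c-ring genes, Atp5g1, Atp5g2 and Atp5g3 encode the same mature subunit from different precursors. Atp5g3, the most abundant of them, had 510.2, 483 and 493 TPM in the control libraries and 408, 396 and 391 TPM in the libraries labelled knockout. The groups did not overlap, and Atp5g3 fell (log2 fold change of -0.31 ± 0.036 (SE), limma adjusted p = 8.64e-05). Atp5g1 had 117, 94.2 and 102 TPM in the control libraries and 91.2, 82.8 and 91.3 TPM in the libraries labelled knockout. It fell as well (log2 fold change of -0.24 ± 0.074 (SE), limma adjusted p = 0.0240), with the highest value under the knockout label below the lowest control. Atp5g2, the least abundant, had 61.1, 48.9 and 51.5 TPM in the control libraries and 62.8, 59.1 and 58.8 TPM in the libraries labelled knockout. Its groups overlapped and it did not pass the test (log2 fold change of 0.16 ± 0.074 (SE), limma adjusted p = 0.0908). Atp5g2 supplied 8.22 ± 0.579% (SD, n = 3) of the summed TPM of the 3 genes in the controls and 11.01 ± 0.152% (SD, n = 3) under the knockout label, with no overlap. The summed c-ring level was 654 ± 31.9 TPM (SD, n = 3) in the controls and 547 ± 13.1 TPM (SD, n = 3) in the libraries labelled knockout.

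In the F1 head, the alpha and beta subunits form the catalytic hexamer, and the gamma, delta and epsilon subunits form the central stalk. Atp5e, the epsilon subunit, had 539, 493 and 584 TPM in the control libraries and 444, 446 and 419 TPM in the libraries labelled knockout. All 3 libraries labelled knockout were lower than all 3 controls, and Atp5e fell (log2 fold change of -0.30 ± 0.058 (SE), limma adjusted p = 0.00207). Atp5d, the delta subunit, had 169, 162 and 164 TPM in the control libraries and 153, 143 and 150.1 TPM in the libraries labelled knockout. It also fell without overlap (log2 fold change of -0.15 ± 0.038 (SE), limma adjusted p = 0.0101). Atp5a1, the alpha subunit, fell from a mean of 366 to 326 TPM (log2 fold change of -0.17 ± 0.032 (SE), limma adjusted p = 0.00194). Atp5b, the beta subunit and the most abundant ATP synthase gene here, averaged 745 ± 18.9 TPM (SD, n = 3) in the controls and 776 ± 10.9 TPM (SD, n = 3) in the labelled knockout libraries, and did not pass the test (log2 fold change of 0.059 ± 0.035 (SE), limma adjusted p = 0.192). Atp5c1, the gamma subunit, did not pass either (log2 fold change of -0.045).

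The 4 peripheral stalk genes differed in size of change, and these differences were not tested. Atp5j, which encodes coupling factor F6, fell most (log2 fold change of -0.26 ± 0.037 (SE), limma adjusted p = 0.000317), and Atp5h, the d subunit, least (log2 fold change of -0.14, limma adjusted p = 0.0246). The values of Atp5h were 249.6, 247 and 269.6 TPM in the control libraries and 239, 233 and 226 TPM in the libraries labelled knockout. Its groups were separate by a small margin. Atp5o, the oligomycin sensitivity protein, and Atp5f1, the b subunit, lay between them.

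Of the further membrane subunits, Atp5l, the g subunit, had the lowest fold change in complex V. Atp5l had 22.8, 19.0 and 19.3 TPM in the control libraries and 17.9, 13.9 and 12.2 TPM in the libraries labelled knockout. The highest value under the knockout label lay just below the lowest control, and the labelled knockout libraries were spread widely (log2 fold change of -0.46 ± 0.12 (SE), limma adjusted p = 0.0101). Atp5md, a small dimer subunit, had 207, 231 and 229 TPM in the control libraries and 205, 207 and 196 TPM in the libraries labelled knockout. It fell by a small amount (log2 fold change of -0.13 ± 0.047 (SE), limma adjusted p = 0.0408). Atp5j2, Atp5k and Atp5mpl fell by 0.26, 0.24 and 0.20 on the log2 scale. The listed transcript of Atp5md shared 100% of its 50-base stretches with transcripts of other genes, Atp5g2 87.4%, Atp5l 68.5%, Atp5g1 66.0% and Atp5h 50.5%. The sources used here do not give how the authors assigned such reads, and the values of these 5 are uncertain. Atp5f1 shared 23.2% and Atp5o 19.1%, which makes their values uncertain in the same way. Among the 10 ATP synthase genes that shared under 10%, 8 were lower and 0 higher. Sharing was not confined to complex V. Of the called members elsewhere, Ndufs3 shared 35.8%, Cox5b 25.9%, Cox7a2l 19.8%, Ndufb8 13.5%, Ndufab1 12.3% and Uqcr11 10.9%. Their values carry the same kind of uncertainty.

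**Figure D2:**
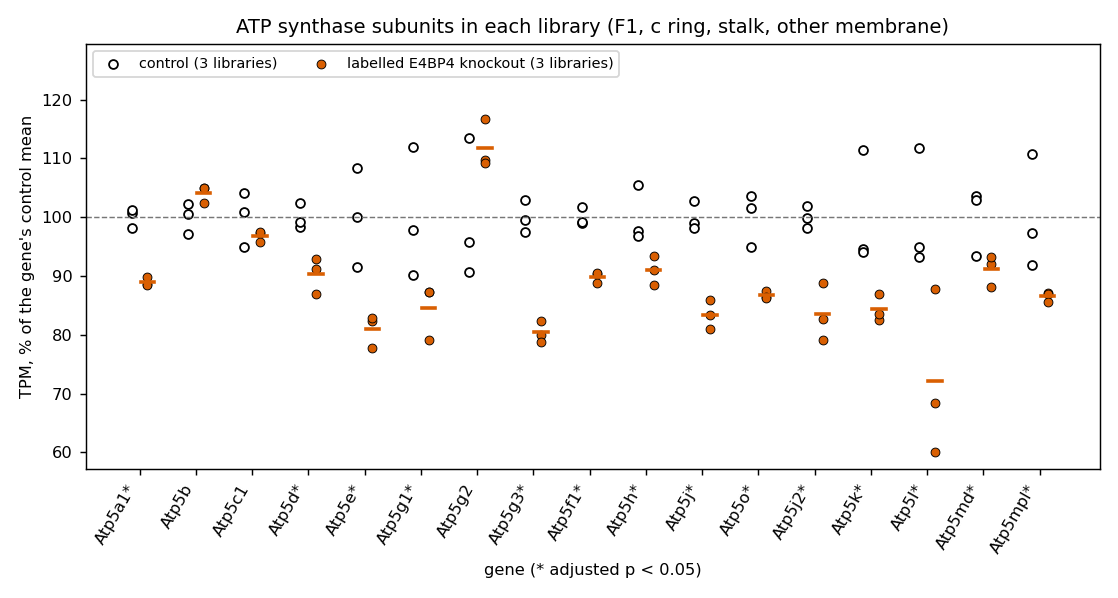
TPM of each ATP synthase gene in each library, as a percentage of that gene's control mean, ordered as F1, c ring, peripheral stalk and further membrane subunits. Points are libraries (3 a group), short lines are the means of the libraries labelled knockout, and asterisks mark genes that passed the test. The points labelled knockout lie below all control points for 14 of the 17 genes.

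The number of ATP synthase genes called lower depended on the threshold and the filter: it was 7 at an adjusted p under 0.01, and 9 with no filter on low values, where 19482 genes were tested. It ranged from 11 to 14 when each library was left out in turn.

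Complex I has a hydrophilic arm that reaches into the matrix and carries the electron path, and a membrane arm that pumps protons. Of its 7 nuclear core subunits, 5 rose under the knockout label. Ndufs3, a core subunit of the hydrophilic arm, had 52.1, 45.6 and 50.7 TPM in the control libraries and 63.8, 63.6 and 63.8 TPM in the libraries labelled knockout. The groups were separate and the libraries labelled knockout were almost identical (log2 fold change of 0.36 ± 0.051 (SE), limma adjusted p = 0.000300). Ndufv2, Ndufs1, Ndufv1 and Ndufs8, which carry iron-sulfur clusters or the flavin, were higher by 0.18, 0.17, 0.15 and 0.12 on the log2 scale. Ndufs7 did not pass (log2 fold change of -0.082).

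Genes close to several of these moved with them. Around Ndufs3, 30 of the 38 other tested genes within 5 Mb were higher, with a median log2 fold change of 0.36, nearly the value of Ndufs3 itself. Around Ndufs1 the median of 49 neighbours was 0.31. When the median of each gene's neighbours was subtracted, Ndufs8 and Ndufv1 were higher, Ndufs1 was lower and Ndufs3, Ndufv2 and Ndufs7 did not pass. The direction of Ndufs1 was therefore the reverse of that in the unadjusted comparison, at -0.14 (limma adjusted p = 0.0297). Here and below, each median was subtracted as a fixed value. The adjusted p-values after subtraction thus leave out the error of the median itself.

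Among the 29 accessory subunits of complex I, 3 rose, 4 fell and 22 did not pass. Ndufc2, of the membrane arm, had 208, 186 and 198 TPM in the control libraries and 259, 263 and 229 TPM in the libraries labelled knockout. The groups were separate (log2 fold change of 0.34 ± 0.060 (SE), limma adjusted p = 0.00123). Ndufab1, the mitochondrial acyl carrier protein, had 22.2, 25.9 and 29.4 TPM in the control libraries and 33.3, 29.0 and 30.6 TPM in the libraries labelled knockout. It passed (log2 fold change of 0.26 ± 0.091 (SE), limma adjusted p = 0.0375) although 1 library labelled knockout lay below the highest control. Both genes lie on chromosome 7, and their neighbours had median log2 fold changes of 0.28 and 0.22. After subtraction of these medians Ndufc2 was at 0.062 (limma adjusted p = 0.433) and Ndufab1 at 0.031 (limma adjusted p = 0.797), and neither passed. Ndufa9, which lies near the ubiquinone site, rose by 0.21 on the log2 scale, while its neighbours had a median of -0.099.

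The lower accessory subunits included the largest change in complex I after Ndufa4. Ndufa5, of the hydrophilic arm, had 191, 192 and 203 TPM in the control libraries and 139, 149 and 123 TPM in the libraries labelled knockout. The groups were far apart, and Ndufa5 fell to 0.700 of the control mean (log2 fold change of -0.51 ± 0.063 (SE), limma adjusted p = 0.000121). Ndufb8, of the membrane arm, had 298, 286 and 299 TPM in the control libraries and 251.4, 238 and 237 TPM in the libraries labelled knockout. It fell without overlap (log2 fold change of -0.28 ± 0.038 (SE), limma adjusted p = 0.000234). Ndufa8 and Ndufc1, also of the membrane arm, fell by 0.26 and 0.23 on the log2 scale. In all, the hydrophilic arm had 6 higher and 2 lower of 16, and the membrane arm 1 higher and 3 lower of 19.

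Ndufa4 carries a complex I symbol but is now assigned to complex IV. Ndufa4 had 544, 489 and 507 TPM in the control libraries and 344, 369 and 337 TPM in the libraries labelled knockout. The highest library labelled knockout was well under the lowest control, and the mean fell to 0.682 of the control (log2 fold change of -0.55 ± 0.050 (SE), limma adjusted p = 1.74e-05). Its paralogs Ndufa4l2 and AA467197, known to take its place in some tissues, stayed under 0.5 TPM in every library, and Ndufa4 supplied at least 99.8% of the summed TPM of the 3. Ndufa4 and Ndufa5 both lie on chromosome 6. The 15 tested neighbours of Ndufa4 had a median log2 fold change of -0.14 and the 16 of Ndufa5 a median of -0.19. After subtraction of these medians both still fell, by 0.41 (limma adjusted p = 0.000137) and by 0.32 (limma adjusted p = 0.00236) on the log2 scale.

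Of the 8 assembly factors with a complex I symbol, Ndufaf7 and Ndufaf1 were higher (log2 fold changes of 0.24 and 0.14), Ndufaf3 was lower (-0.19) and 5 did not pass. After subtraction of their neighbours' medians, Ndufaf7, Ndufaf1 and Ndufaf3 did not pass. The paralogs Ndufa4l2, Ndufa11b and Ndufb4c did not reach the level needed for a test. The count of higher complex I members fell from 10 to 6 without the first library labelled knockout, and that of all members from 16 to 10. The complex I count was 6 in the authors' deposited table, where 45.9% of 10740 genes passed, and 5 at an adjusted p under 0.01.

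**Figure D3:**
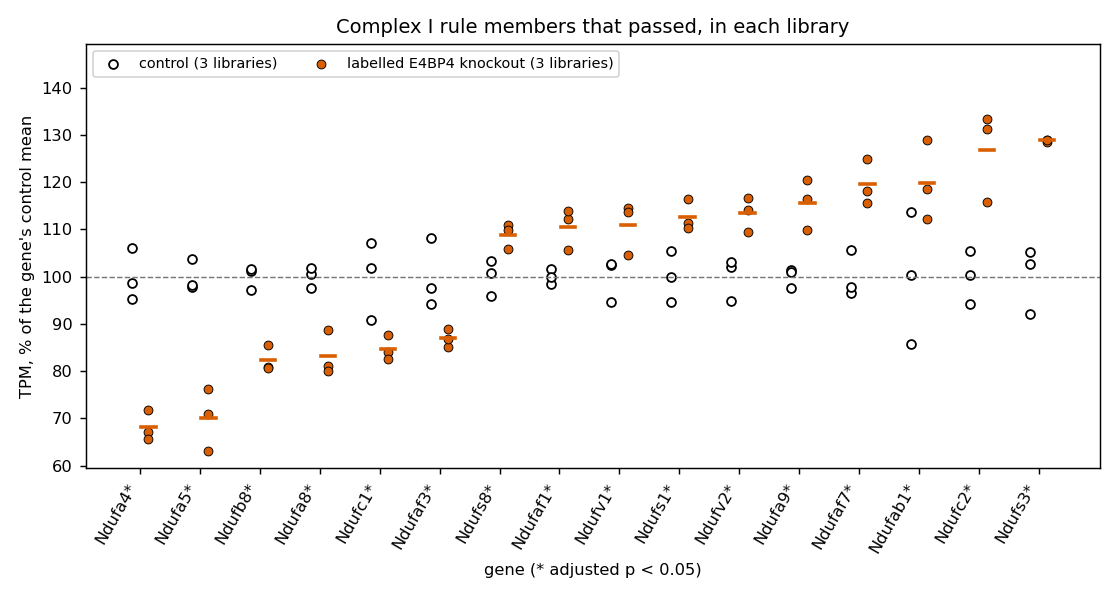
TPM of 16 of the 17 members with a complex I symbol that passed the test, in each library, as a percentage of the gene's control mean and ordered by fold change. Points are libraries (3 a group) and short lines are the means of the libraries labelled knockout. Ndufa4 and Ndufa5 lie near 70% of the control mean, and Ndufs3 and Ndufc2 near 130%.

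Complex II consists of a catalytic pair in the matrix and a pair of membrane anchors. Sdhc, an anchor, had 174, 176 and 171 TPM in the control libraries and 148, 143 and 149 TPM in the libraries labelled knockout. The groups were separate, and Sdhc fell (log2 fold change of -0.24 ± 0.034 (SE), limma adjusted p = 0.000319). Sdhd, the other anchor, had 199.8, 194 and 193 TPM in the control libraries and 172, 173 and 174 TPM in the libraries labelled knockout. It fell too, without overlap (log2 fold change of -0.17 ± 0.033 (SE), limma adjusted p = 0.00168). The catalytic genes differed little between the labels. Sdha, the flavoprotein, had 104, 113 and 107 TPM in the control libraries and 109.6, 110.2 and 105 TPM in the libraries labelled knockout. Sdhb, the iron-sulfur protein, had 130.2, 133 and 137 TPM in the control libraries and 131, 128 and 126 TPM in the libraries labelled knockout. Both overlapped between groups and did not pass (log2 fold changes of 0.0069 and -0.055). Around Sdhc, 38 of 61 neighbours were lower, with a median of -0.30, and after subtraction of that median Sdhc was at 0.054 and did not pass (limma adjusted p = 0.225). Sdhd, whose neighbours had a median of 0.024, still fell (by 0.20 on the log2 scale, limma adjusted p = 0.000906).

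In complex III, Uqcrc2, a core protein that faces the matrix, had the largest change. Uqcrc2 had 174, 176 and 167 TPM in the control libraries and 224, 231 and 222 TPM in the libraries labelled knockout. The lowest library labelled knockout was far above the highest control (log2 fold change of 0.39 ± 0.036 (SE), limma adjusted p = 2.15e-05). Its partner Uqcrc1 did not pass (log2 fold change of -0.035). Uqcrc2 lies on chromosome 7, its 48 neighbours had a median of 0.28, and it stayed higher, by 0.11, after subtraction of that median (limma adjusted p = 0.0342).

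The 5 small subunits of complex III moved in both directions. Uqcrq had 155, 152 and 163 TPM in the control libraries and 189.7, 185 and 169 TPM in the libraries labelled knockout. Uqcrh, the hinge protein, had 168, 156 and 153 TPM in the control libraries and 177, 183 and 179.8 TPM in the libraries labelled knockout. Both rose without overlap, by 0.21 (limma adjusted p = 0.00623) and 0.18 (limma adjusted p = 0.00510) on the log2 scale. After subtraction of its neighbours' median of 0.13, Uqcrh was at 0.054 and did not pass (limma adjusted p = 0.321), while Uqcrq stayed higher by 0.24 (limma adjusted p = 0.00284). Uqcr10 had 270.2, 228 and 242 TPM in the control libraries and 212, 210.4 and 209 TPM in the libraries labelled knockout. Uqcr11 had 142, 129 and 135 TPM in the control libraries and 112, 118 and 118 TPM in the libraries labelled knockout. These 2 fell without overlap, by 0.23 (limma adjusted p = 0.00776) and 0.22 (limma adjusted p = 0.00234) on the log2 scale. Uqcrb did not pass, nor did Uqcrfs1, the Rieske iron-sulfur protein (log2 fold changes of -0.048 and -0.11).

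In complex IV, 10 widely expressed subunits, 7 tissue isoforms and 1 supercomplex factor fell under the symbols. Among the widely expressed subunits, Cox8a, Cox7b and Cox7a2 were lower, Cox5b was higher and 6 did not pass. Cox8a had 628, 522 and 566 TPM in the control libraries and 482, 463 and 474 TPM in the libraries labelled knockout. The groups were separate, and Cox8a fell (log2 fold change of -0.27 ± 0.060 (SE), limma adjusted p = 0.00459). Cox7b, 1 of the 2 members with a D-box match, had 204, 169.7 and 178 TPM in the control libraries and 154, 163 and 161 TPM in the libraries labelled knockout. It fell without overlap (log2 fold change of -0.20 ± 0.062 (SE), limma adjusted p = 0.0213). Cox7a2 had 259, 235 and 245 TPM in the control libraries and 214, 222 and 214 TPM in the libraries labelled knockout. It fell as well (log2 fold change of -0.18 ± 0.042 (SE), limma adjusted p = 0.00575). All of Cox8a, Cox7b and Cox7a2 sit in the membrane part of the enzyme.

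Cox5b, a zinc-binding subunit on the matrix side, had 261, 243 and 265.5 TPM in the control libraries and 295, 305 and 269 TPM in the libraries labelled knockout. The groups were separate by a narrow margin (log2 fold change of 0.18 ± 0.053 (SE), limma adjusted p = 0.0211). Its 50 neighbours on chromosome 1 had a median of 0.26, and after subtraction Cox5b was at -0.085 and did not pass (limma adjusted p = 0.221). Without the second control, the first or the second library labelled knockout, its adjusted p in limma was 0.0678, 0.0707 or 0.0824. Cox7a2l, a factor that joins complexes III and IV into supercomplexes, had 112, 103 and 95.1 TPM in the control libraries and 128, 129.7 and 128 TPM in the libraries labelled knockout. It rose without overlap (log2 fold change of 0.31 ± 0.054 (SE), limma adjusted p = 0.00105), and stayed higher by 0.19 after subtraction of its neighbours' median of 0.11.

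Several complex IV subunits come as a widely expressed form and a form typical of heart and skeletal muscle, testis or lung. The widely expressed form made up nearly all of each pair in these cells. Cox6a2, the muscle form of Cox6a, had 0.777, 0.908 and 0.462 TPM in the control libraries and 1.88, 2.45 and 2.72 TPM in the libraries labelled knockout. It rose (log2 fold change of 0.97 ± 0.14 (SE), limma adjusted p = 0.000317), but it passed the filter on low values only through the libraries labelled knockout, so a difference was built into its being tested. It could not be tested with any of those 3 left out. Cox6a2 made up 0.190 ± 0.069% (SD, n = 3) of the summed Cox6a TPM in the controls and 0.639 ± 0.122% (SD, n = 3) under the knockout label. Cox6a1, the widely expressed form, had 385, 359 and 399 TPM in the control libraries and 371, 367 and 362 TPM in the libraries labelled knockout. Its groups overlapped and it did not pass (log2 fold change of -0.056).

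The other isoform sets showed the same dominance. Cox7a1, the muscle form of Cox7a, had 17.998, 14.8 and 23.1 TPM in the control libraries and 20.5, 23.4 and 21.8 TPM in the libraries labelled knockout. It did not pass (log2 fold change of 0.24 ± 0.13 (SE), limma adjusted p = 0.135), and its share of summed Cox7a TPM was 7.02 ± 1.41% (SD, n = 3) in the controls and 9.18 ± 0.412% (SD, n = 3) under the knockout label. Cox4i1 had 759, 733 and 823 TPM in the control libraries and 729.6, 735 and 671 TPM in the libraries labelled knockout. It was the most abundant member of all and did not pass (log2 fold change of -0.12 ± 0.053 (SE), limma adjusted p = 0.0968). Cox6b1 had 498, 421 and 419.9 TPM in the control libraries and 468, 489 and 465 TPM in the libraries labelled knockout. It overlapped between groups and did not pass (log2 fold change of 0.091). Cox4i2 reached at most 1.02 TPM, Cox6b2, Cox8b and Cox8c stayed under 0.5 TPM in every library, and Cox7b2 was listed at 0 throughout.

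The direction of the members moved with that of the genes around them. Of the 16 higher members, 12 lay where the other tested genes within 5 Mb had a median log2 fold change above 0.1, against 2 of the 28 lower members and 7 of the 43 that did not pass. The other genes of chromosome 7 had a median of 0.24, with 516 of 871 higher and 73 lower, against 0.00 off chromosome 7. All 7 tested members on chromosome 7 had positive fold changes, 4 of them higher, and complex V has none there. Cox6a2, 1 of these 4 and of the 12 above, was tested only through the libraries labelled knockout, so its direction was built in. On chromosome 7, 57.1% of the tested members passed, beside 67.6% of the other genes. Off chromosome 7, 12 of 80 tested members were higher and 28 lower, beside 2470 higher and 2536 lower of 10299 other genes.

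An adjustment chosen after seeing the data subtracted from each gene the median of its neighbours. It left 7 of the 16 higher members higher, Cox6a2 among them, turned 1 (Ndufs1) lower and left 8 not passing. Of the 28 lower members, 23 were still lower and 5 were not. With 7 further calls among members that had not passed, the counts became 9 higher and 30 lower, so the higher share of called members went from 36.4% to 23.1%. In complex V, 12 of the 14 lower genes were still lower, Atp5d and Atp5h did not pass, and all 14 lay below the median of their neighbours. Atp5j had a lower fold change than each of its 10 neighbours, whose median was 0.14. What moved whole neighbourhoods was not tested.

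**Figure D4:**
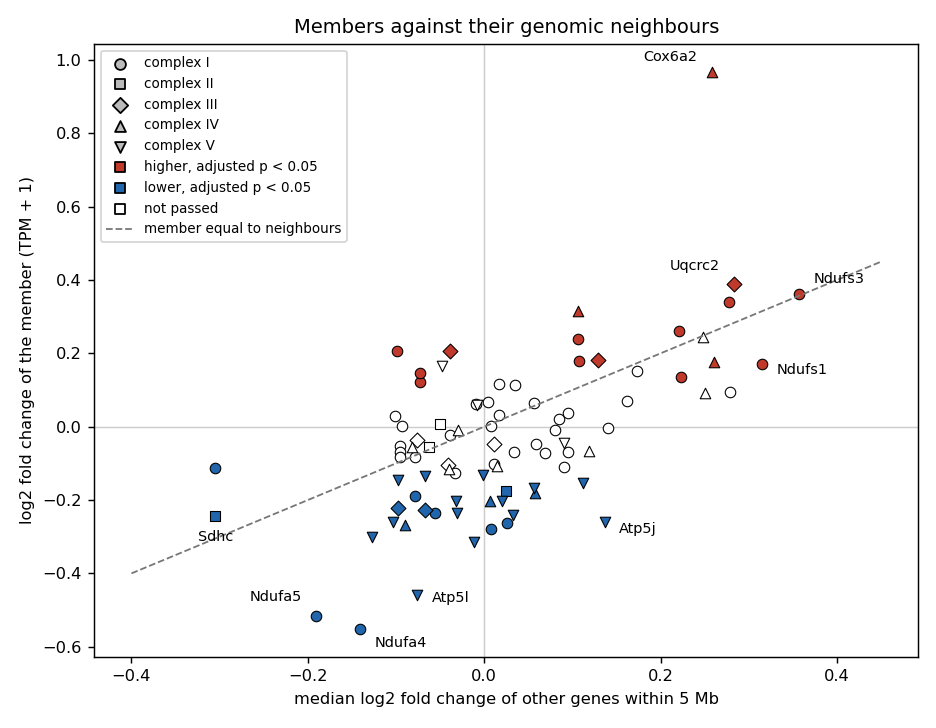
Log2 fold change of each tested member against the median log2 fold change of the other tested genes within 5 Mb. Marker shapes give the complex and colours the call, and the dashed line marks equality. Most higher members lie to the right of 0, Ndufs3 and Uqcrc2 among them, whereas the lower ATP synthase genes spread from -0.13 to 0.14 on the horizontal axis.

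Transcript length moved with the fold changes too. Of the 21 tested members of at most 500 bases, 0 were higher and 10 lower (median log2 fold change -0.13). Among the 29 members over 1000 bases, 9 were higher and 6 lower (median 0.02). Of the 421 other genes of at most 500 bases, 44 were higher and 64 lower (median -0.07), and other genes over 1000 bases had a median of 0.02. Those short genes are unlike the short members, with a median length of 86 bases against 444 and a median control level of 4.12 against 178 TPM. Across the 87 members, Pearson's r between log2 length and log2 fold change was 0.23, and across 11170 other genes 0.07, as descriptions over genes that share libraries. After a smooth trend with length was removed from each library, 23 members were higher and 26 lower (46.9% of called members higher, against 36.4% before), and complex V had 12 lower and 1 higher. Of the 4 ATP synthase genes over 1000 bases, 2 were lower. The part of length in the members' values was not tested further.

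**Figure D5:**
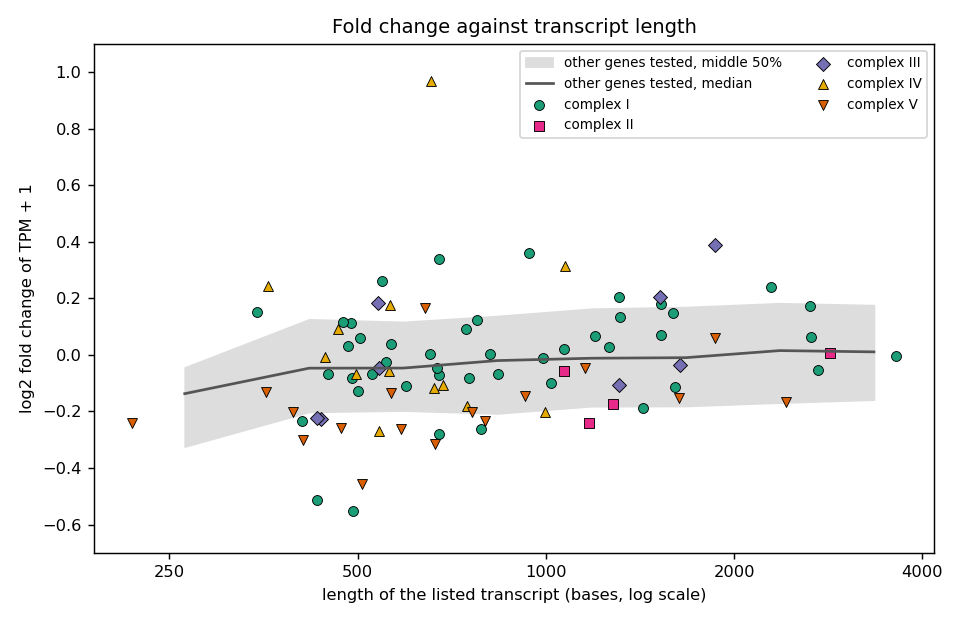
Log2 fold change of each tested member against the length of its listed transcript on a log scale, by complex, with the median and the middle 50% of the other genes tested in bins of length. Most ATP synthase genes are short and lie under the median line, and the other genes' median is lower at short lengths.

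Summed transcript levels were lowest against the controls in complexes V and II. The complex V genes summed to 4906, 4704 and 4881 TPM in the controls and 4359.9, 4348 and 4241 TPM in the libraries labelled knockout. The groups were separate, with a ratio of means of 0.894. Complex II summed to 608, 617 and 607 TPM in the controls and 561, 555 and 554 TPM in the libraries labelled knockout. These were separate as well, with a ratio of 0.912. The sums of complexes I, III and IV overlapped between groups, with ratios of 0.963, 1.02 and 0.954. Ndufa4, at a mean of 513 TPM in the controls, is counted here in complex I by its symbol, although now assigned to complex IV. The ratios of complexes I and IV, and the overlap of complex IV, depend on this placement. As a share of the summed TPM of all 95 members, complex V went from 31.0 ± 0.379% (SD, n = 3) in the controls to 29.4 ± 0.219% (SD, n = 3) under the knockout label. Complex III went from 8.36 ± 0.0522% to 9.05 ± 0.143%, and complex I, with Ndufa4, from 32.7 ± 0.169% to 33.4 ± 0.209% (SD, n = 3 each). These shares did not overlap between groups, while those of complexes II and IV did. The sums are descriptions with no test.

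Assembly factors outside the symbol rule moved in both directions. The share that passed was 66.7%, 25.0%, 16.7%, 47.6% and 40.0% in the lists for complexes I to V. Of all genes tested 50.1% passed, with 26.7% higher and 23.4% lower. For complex V, Tmem70, which helps build the c ring, rose by 0.26 on the log2 scale (limma adjusted p = 0.000782), and Atpif1, the ATP synthase inhibitor, fell by 0.12 (limma adjusted p = 0.0451), with 3 of 5 not passing. For complex IV, 7 of 21 were higher and 3 lower, among them Cox10 and Lrpprc (0.33 and 0.35, higher) and Cox20 (-0.45, lower). For complex I, 4 of 9 were higher and 2 lower, led by Nubpl, Tmem126b and Acad9 (0.32, 0.30 and 0.23). Sdhaf1 for complex II and Ttc19 for complex III were the only members of their lists of 4 and 6 to pass, both higher (0.41 and 0.21).

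The carriers of electrons between complexes and the enzymes that feed them were mixed. Coq10b, a ubiquinone-binding protein, had 7.53, 7.32 and 8.52 TPM in the control libraries and 14.0, 15.6 and 16.4 TPM in the libraries labelled knockout. It rose to 1.97 times the control mean without overlap (log2 fold change of 0.89 ± 0.074 (SE), limma adjusted p = 1.04e-05). In the ubiquinone list 4 of 13 were higher and 1 lower, with Coq8b and Coq3 at 0.46 and 0.36. Of 6 genes listed for cytochromes c and c1 and for electron transfer, Etfb, Etfa and Hccs were higher (0.33, 0.22 and 0.20) and 0 lower. The cytochrome genes themselves, Cycs and Cyc1, did not pass (-0.0023 and -0.021). The tricarboxylic acid cycle list had 3 higher and 3 lower of 13, with Mdh2 at -0.31, Idh3a at -0.22 and Suclg1 at 0.26. Of 6 nucleotide and phosphate carriers, only Slc25a5, an ADP/ATP carrier, passed (0.12). The share that passed was 38.5% in the ubiquinone list, 46.2% in the tricarboxylic acid cycle list and 16.7% among the carriers. Of all genes tested 50.1% passed, with 26.7% higher and 23.4% lower, and none of these lists, nor the cytochrome and electron transfer list, exceeded that share.

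Regulators of mitochondrial biogenesis had 5 higher and 1 lower of 13 tested (46.2% passing, beside 50.1% of all genes tested). The mitochondrial DNA polymerase Polg, the RNA polymerase Polrmt and the transcription factor Tfam were higher (0.26, 0.22 and 0.15), and Ppargc1a was at or below 0.024 TPM and not tested. Tmem126b, Sdhaf1, Etfb, Coq8b and Polg lie on chromosome 7.

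Ribosomal protein genes, which also encode large complexes, are given for their counts. Their median control level was 42.5 TPM for the mitochondrial and 755 TPM for the cytosolic ones, against 256 TPM for complex V, so they differ in abundance. The 78 mitochondrial ribosomal protein genes had 20 higher and 17 lower (median log2 fold change 0.00). The 77 cytosolic ribosomal protein genes had 29 higher and 3 lower (median 0.08). The share that passed was 47.4% and 41.6%, beside 50.1% of all genes tested. The ATP synthase genes, with 0 higher and 14 lower of 17, are set beside these as counts only.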

How the data were processed

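RNA was measured in 6 libraries of RAW264.7 cells, 3 labelled E4BP4 knockout and 3 labelled Control. Per the submitters' processing notes, the tools included STAR 2.7.5a, bcl2fastq, DESeq2 and HOMER 4.11.1, with mm10 as the build and no role given for each. One table deposited by the authors gives TPM per gene. Per the file headers, the authors' other one is a table of log2 values with the fold changes, p-values and adjusted p-values of their own comparison. The sources used here do not explain the header's TG, which was read as the group labelled knockout. TPM values corresponded to whole reads within 0.1, which gave the depth.

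Here log2(TPM + 1) was compared with limma 3.58.1 (mean-variance trend, 2-sided, no covariates) in R 4.3.3, for the 11257 genes with at least 1 TPM in 3 or more of the 6 libraries, with Benjamini-Hochberg adjustment over all of them. The fit was tested on simulated data. A log2 fold change on this scale understates the change of low genes. No count test was the main test, since the deposited values are TPM, and limma-voom on recovered reads was run only as a refit. Tables were handled with python 3.11.15 and pandas 2.3.3. Members, lists and motifs were chosen with earlier results of these data known, and NRF1's motif was shortened by 1 base after a first count. Values of every library are given for the 3 highest and 3 lowest called members of each complex, for complex II and for isoform sets, and up to 3 genes of each other list are named by adjusted p. One member counted in the totals is not reported here by itself. Other genes and promoters shown were chosen after their values were seen. Neighbours are tested genes that are not members, centred within 5 Mb, and in the adjusted fit all genes with 10 or more neighbours. The sources used here do not say whether counting used strand or how shared reads were assigned.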

Additional observations from a re-analysis of the deposited data

How the results depend on the processing

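The 6 libraries, 3 a group, limit which small differences can be called, and the depth of 15.6 M to 19.9 M recovered reads makes counting error small for most members. Of the 44 called members, 22 kept their call in every one of the 20 refits of the whole table that tested them. Cox6a2 is among the 22 although only 16 of the refits gave it a value. Refits were labelled only for the members whose values are given for every library. They left 591 results on the same side of the threshold, with called members in the same direction, 50 weaker, 11 stronger and 2 reversed. The reversals in that set were of called members, Cox5b (-0.085) and Sdhc (0.054), after removal of the neighbours' median. A turn of sign in members that had not passed was not labelled reversed. Cox6b1 (-0.16), Cox7a1 (-0.0037), Cox6a1 (0.026) and Sdhb (0.0078) turned in this way after that removal. Outside that set, the removal of the neighbours' median turned, among others, the call of Ndufs1 (-0.14) and the sign of Ndufaf1 (-0.088). It also turned the sign of several members that had not passed, among them Ndufb3, which was then lower (-0.18, limma adjusted p = 0.0308).

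At an adjusted p under 0.01, members numbered 10 higher and 18 lower, with 5 higher in complex I and 7 lower in complex V. Complex V had 9 lower with no filter on low values and 8 with members sharing 50-base stretches left out. It had 1 higher, Atp5g2, after removal of the length trend, of the neighbours' median or with the replicate block. With the neighbours' median removed, 9 members were higher, 4 of them in complex I, which had 6 in the authors' deposited table. The complex II median was -0.14 with upper-quartile scaling, -0.13 with median centring, -0.093 without the length trend, -0.14 in limma-voom on recovered reads, -0.13 in the authors' deposited table and 0.031 without the neighbours' median. Without the length trend the complex IV median was 0.0013 and the complex V median -0.16. With members sharing stretches left out, the medians of complexes III and IV were 0.074 and -0.11. Sum ratios became 0.899 for complex II with upper-quartile scaling and, without the most abundant member, 0.924 for complex II, 1.06 for complex III and 0.867 for complex V. Complex IV had 5 lower members in limma-voom on recovered reads. The cause of these shifts was not tested, beyond the fewer members or other gene numbers tested.

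Leaving out each library in turn gave 10 to 19 members higher, 6 to 11 of them in complex I, 0 to 1 higher in complex V, and complex V medians of -0.24 to -0.16. Only the labels' numbers could pair the libraries. Same-number deviations correlated at -0.013, -0.058 and 0.003, so the numbers were not taken to pair them. With the replicate block, 17 members were higher and 26 lower, and 2794 genes were higher and 2503 lower.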
